A study of Mus musculus with 8 samples.

Results

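The transcripts described here are the ones that RefSeq lists as noncoding (accessions starting NR_) and that were quantified in mouse liver over the circadian cycle. A transcript block is 1 annotated transcript with its exons and introns in the deposited tables. Members were the blocks whose name held an NR_ accession and no coding (NM_) accession, with 20 or more reads in 2 or more libraries. Blocks of the snoRNA host genes Gas5, 1110038B12Rik and symbols starting Snhg were left out. Of 1824 noncoding blocks, 418 passed the read minimum, 12 of these were snoRNA hosts, and 406 were members. They lay at 349 loci once blocks sharing exon bases were joined, and 342 of them matched a gene symbol (309 symbols). The other 64 are called by accession. At the edge of the minimum, 8 members had exactly 20 reads in their second highest library, with means of 0.344 to 17.8 RPKM, and 5 noncoding blocks had 19, with means of 0.177 to 0.790 RPKM.

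All 8 groups were livers of wild-type C57/BL6 mice, kept in a 12 h light and 12 h dark schedule and then in full darkness for a day before collection, with no treatment. Each circadian time (CT, hours of the internal day) is 1 library from the pooled RNA of 3 animals, taken every 6 h from CT23 to CT65 over 2 internal days. Values listed from CT23 to CT65 are in the order of time. The pair CT23 and CT47 falls late in the subjective night (phase CT23), CT29 with CT53 in the middle of the subjective day (CT5), CT35 with CT59 late in the day (CT11) and CT41 with CT65 in the middle of the night (CT17). Sex and age are not given in the labels, and no time has a replicate library, so the spread measured is that of single pools around a fitted curve.

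A noncoding RefSeq transcript can be several unlike things. Long noncoding RNAs such as Malat1 and Neat1 act as RNA in the nucleus, where Malat1 gathers in nuclear speckles and Neat1 is the scaffold of paraspeckles. Transcribed pseudogenes are copies of coding genes that lost their reading frame, antisense transcripts run against a coding gene, and many NR_ entries are splice variants of coding genes for which no protein is listed. Hairpin entries mark the precursors of microRNAs (miRNAs), the short RNAs that pair with messages through bases 2 to 8, the seed.

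Sequences show what kind of start the main members have. Promoter windows run from 250 bases before to 50 after the start and are from RefSeq (GRCm38.p6), in which 201 of the 309 member symbols had a window. D930048N14Rik (chr11:51650704-51651003, + strand) and Hectd2os (chr19:36689430-36689729, - strand) are the called members that are genes of their own with junction reads, Dancr (chr5:74092810-74093109, + strand) had the smallest adjusted p among members clear of coding exons, and Firre (chrX:50635272-50635571, - strand) held an E-box. Capitals mark a motif where one was found.
D930048N14Rik: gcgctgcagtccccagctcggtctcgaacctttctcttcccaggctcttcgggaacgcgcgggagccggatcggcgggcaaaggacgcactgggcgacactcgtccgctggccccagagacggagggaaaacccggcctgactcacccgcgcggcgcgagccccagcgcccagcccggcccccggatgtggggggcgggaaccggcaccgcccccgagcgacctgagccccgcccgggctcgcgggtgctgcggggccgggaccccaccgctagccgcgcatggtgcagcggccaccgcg
Hectd2os: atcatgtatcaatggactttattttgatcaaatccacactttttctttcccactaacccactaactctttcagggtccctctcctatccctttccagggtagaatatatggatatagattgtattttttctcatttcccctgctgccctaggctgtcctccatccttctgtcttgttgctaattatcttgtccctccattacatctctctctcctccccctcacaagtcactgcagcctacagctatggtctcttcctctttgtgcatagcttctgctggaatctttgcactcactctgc
Dancr: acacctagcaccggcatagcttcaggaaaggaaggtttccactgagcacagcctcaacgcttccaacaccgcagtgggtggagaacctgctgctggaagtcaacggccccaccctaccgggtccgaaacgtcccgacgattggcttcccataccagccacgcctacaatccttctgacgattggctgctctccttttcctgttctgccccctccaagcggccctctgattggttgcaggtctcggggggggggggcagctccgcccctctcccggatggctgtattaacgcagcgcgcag
Firre: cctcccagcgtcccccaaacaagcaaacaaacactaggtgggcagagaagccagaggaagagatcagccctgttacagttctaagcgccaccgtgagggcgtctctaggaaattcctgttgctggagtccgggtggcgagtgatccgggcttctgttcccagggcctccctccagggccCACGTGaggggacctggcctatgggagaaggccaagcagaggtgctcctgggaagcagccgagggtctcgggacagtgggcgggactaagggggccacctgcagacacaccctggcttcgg

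The motifs searched on both strands were CACGTG (E-box, bound by CLOCK and BMAL1), TTACGTAA and TTATGTAA (D-box), TAGGTCA (the core bound by ROR and REV-ERB) and GAANNTTC (heat shock element core). The windows of D930048N14Rik, Hectd2os and Dancr held none of these letters. The window of D930048N14Rik was 76.0% G and C, that of Dancr 61.3% and that of Hectd2os 44.0%. In Firre an E-box began 71 bases before the start. Of the 273 windows of member symbols, 26 (9.52%) held an E-box, against 7.15% of all 32851 windows. TTACGTAA was in 2 of the 273 (0.733%, against 0.119% of all), TTATGTAA in 1 (0.366% against 0.938%), TAGGTCA in 5 (1.83% against 2.61%) and GAANNTTC in 14 (5.13% against 7.86%). Windows were matched by symbol, so a noncoding variant of a coding gene brings in the windows of that gene. Without the symbols that also have a coding block, 104 windows were left. Of these, 15 (14.4%) held an E-box, 0 held TTACGTAA and 0 TTATGTAA. TAGGTCA was in 3 of them (2.88%) and GAANNTTC in 6 (5.77%). All of these are matches of letters, with no measurement of binding.

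Of 15 member symbols starting Mir, 13 had sequences in the RefSeq table, with 18 mature forms and 18 different seeds. Mir22 is shown because its host gene is also a member, so that the hairpin row can be set beside the host. Its mature forms follow, with the seed in capitals.
mmu-miR-22-3p: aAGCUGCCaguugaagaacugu
mmu-miR-22-5p: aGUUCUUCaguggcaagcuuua

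The libraries held 11.7 to 13.9 M reads behind 1 RPKM (reads per kilobase of transcript, scaled to library depth), and CT35 held 22.9 M. CT35 also had a lower share of intron reads, 12.9% against 18 to 20.8% in the other 7, over 1 coding block per gene, and 14749911 junction reads against 5270743 to 6227130. Junction reads scaled to library reads are therefore raised at CT35 relative to the others. Without it 387 of the 406 members would have passed the read minimum. The 6 clock genes checked (Arntl, Dbp, Nr1d1, Per2, Per3 and Ciart) were all called for a 24-h component. The 7 hepatocyte markers averaged 163 to 35072 RPKM, and the 21 of 28 markers of other liver cell types that were tested averaged 0.451 to 48.6 RPKM, with 0 called for a 24-h component. In bulk liver, fewer cells of a type and less RNA per cell cannot be told apart.

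How much of a noncoding block can be read as its own RNA depended on its overlap with coding exons. Coding blocks here are the NM_ ones, and overlap with coding models of other sources was not measured. Of the 406 members, 130 had no exon base in an exon of a coding block, and 140 were variants, with the symbol of a coding block. Another 63 shared exon bases with a coding gene on the same strand under another symbol or none of their own. The last 73 overlapped a coding gene on the opposite strand only. The 64 members with no symbol could not count as variants, even of the gene they overlap. Over 90% of the exon bases lay in coding exons in 167 members. No source used here gives the strand setting of the quantification, so reads of a member and of a coding gene over the same bases cannot be told apart on either strand. Outside coding exons (whole exons without a shared base), 161 members (39.7%) still had 20 or more reads in 2 or more libraries: the 130, and 31 of the 276 others.

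Levels were lowest in the members clear of coding exons. Their median of the mean RPKM over libraries was 2.11, against 2.33 for the opposite-strand class, 3.34 for the variants and 7.31 for the same-strand class. Over all members the median was 3.01 RPKM, beside 4.22 for coding blocks tested. By mean level 81 members were under 1 RPKM, 87 at 10 or more and 12 at 100 or more. Members were 61 to 83437 bases long, with a median of 2183.5, and Kcnq1ot1 was the longest.

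Splice junctions gave a second readout, since a junction belongs to an intron. The 406 members had 356412 junction reads over their introns in all 8 libraries, and 45297 of these (12.7%) crossed an intron that no coding block has. In the variants of coding genes that share was 1.74%, with 4410 of 253670 reads. In the same-strand class it was 1.25%, with 747 of 59718. In the opposite-strand class it was 55.8%, with 3647 of 6531. Junction reads over at least 1 intron of their own were found for 247 of the 301 members that have such an intron.

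**Figure D1:**
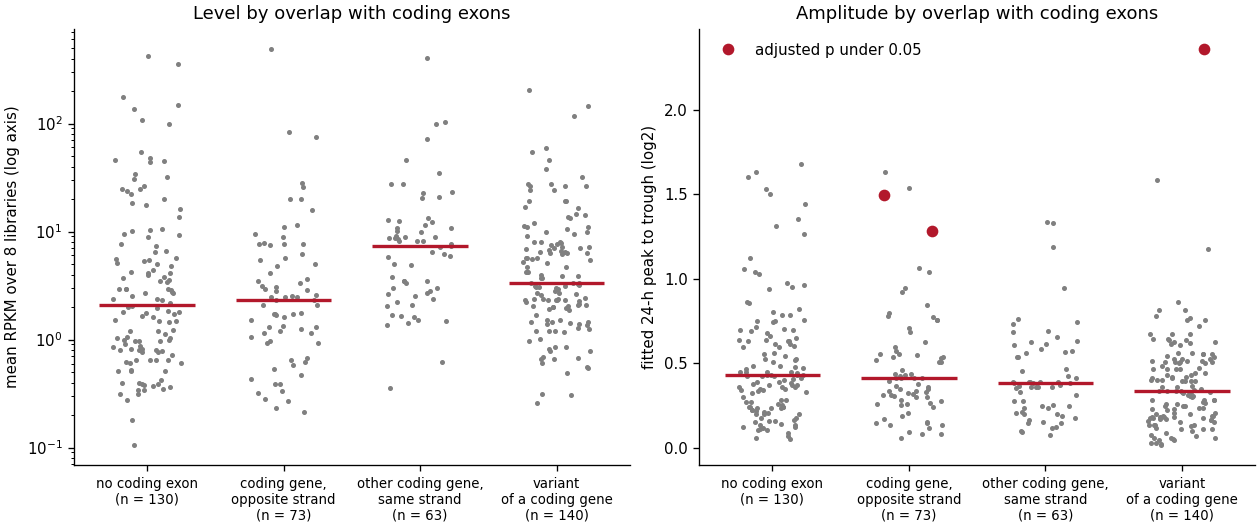
Each grey point is 1 member. On the left is its mean level over the 8 libraries (RPKM, log axis) and on the right the fitted 24-h peak-to-trough difference (log2 of RPKM + 0.5), by overlap with coding exons, with red bars at the class medians. The highest class median is that of the same-strand class (7.31 RPKM). The 3 members called for a 24-h component (red points) overlap coding exons, as do 276 of all 406 members. D930048N14Rik was also called from its exons outside coding exons (limma, adjusted p = 0.0284).

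The first comparison asked which members changed with a 24-h period. A cosine and a sine of 24 h were fitted to log2(RPKM + 0.5) of each block with limma, and p-values were adjusted over all 63103 blocks tested. Of the 406 members 3 had an adjusted p under 0.05, while 1.87% of all blocks and 2.06% of coding blocks did. Hectd2os and D930048N14Rik were among them. An unadjusted p under 0.05 was found for 63 members (15.5%), against 16.2% of all blocks. The median fitted peak-to-trough difference was 0.39 (log2) in the members and 0.40 over all blocks. In simulated data with the same blocks, 75 of 100 blocks with a peak-to-trough of 2 (log2) were called and 2 of 100 with a peak-to-trough of 1.

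Of the members, 3 were called higher at CT23 than at CT11 (background 0.708% of blocks) and 0 lower (0.705%). Atf5 NR_033136 and B230206H07Rik were among them. At CT5 against CT17, 1 was called higher (0.393%), Hectd2os, and 0 lower (0.201%). The split of CT5 against CT17 calls into higher and lower moved with the scaling. Over all blocks, 248 were higher and 127 lower at CT5 here, against 122 and 163 under TMM scaling (edgeR's trimmed mean of M-values), 118 and 183 with the libraries' medians set equal, 220 and 297 by edgeR and 517 and 768 by DESeq2. Of the members, 0 were higher and 1 lower under TMM and under equal medians, 1 and 2 by edgeR, and 1 and 7 by DESeq2. Between the second and the first internal day limma called 0 members and 0 of all blocks. Unadjusted p-values under 0.05 were found there for 22 members (5.42%), against 2.29% of all blocks, and edgeR and DESeq2 on recovered reads also called 0 members (DESeq2 called 2 of all blocks).

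Hectd2os (chr19:36693908-36763969, - strand, mm9, 5 exons) runs against Hectd2, a gene for a HECT-type ubiquitin ligase. It was at 7.68, 12.7, 5.35, 3.5, 8.54, 10.6, 9.10 and 4.22 RPKM from CT23 to CT65. CT29 and CT53, the CT5 libraries, were the highest, and CT41 and CT65, the CT17 libraries, were the lowest. The fitted peak-to-trough was 1.49 ± 0.26 (log2, SE) with a peak at 4.49 ± 0.662 h of circadian time (limma, adjusted p = 0.0270), and CT5 exceeded CT17 by 1.48 ± 0.26 (adjusted p = 0.0256). Exons of Hectd2 covered 64.5% of its exon bases, and Hectd2 itself, at 3.95, 6.65, 2.28, 1.78, 4.31, 4.98, 4.51 and 2.21 RPKM, had a peak-to-trough of 1.37 ± 0.28 that missed the threshold (adjusted p = 0.0571).

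Hectd2os could also be read apart from the exon bases it shares with Hectd2. Its exons without a shared base held 37, 43, 83, 16, 51, 62, 34 and 13 reads from CT23 to CT65, 13.7% of its exon reads. These counts are not scaled to depth, which was 22.9 M reads at CT35. Relative to depth CT53 was the highest and CT41 and CT65 were the lowest, but CT29 lay below CT47 and CT35. In these exons alone the peak-to-trough was 1.66 ± 0.33 (adjusted p = 0.0503) and CT5 exceeded CT17 by 1.66 ± 0.33 (adjusted p = 0.0462). Junction reads over introns that no coding block has numbered 9, 14, 15, 3, 9, 15, 11 and 3. Scaled to depth (junction reads per M library reads) they were highest in the CT5 libraries, at 1.16 and 1.21, and lowest in the CT17 libraries, at 0.257 and 0.216.

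D930048N14Rik (chr11:51464456-51471182, + strand, 4 exons) was the called member that stood mostly clear of coding sequence. It was at 3.54, 2.06, 1.53, 4.71, 3.44, 1.74, 2.01 and 3.78 RPKM from CT23 to CT65, with all 4 night libraries above all 4 day libraries. The peak-to-trough was 1.28 ± 0.22 with a peak at 19.7 ± 0.666 h (adjusted p = 0.0275). Only 3.5% of its exon bases lay in exons of N4bp3 on the opposite strand. Outside them, in exons with 96.7% of its exon reads, the peak-to-trough was 1.26 ± 0.22 (adjusted p = 0.0284). N4bp3, at 0.866, 0.582, 1.0, 1.5, 1.15, 0.938, 0.793 and 1.09 RPKM, had a peak-to-trough of 0.53 ± 0.21 (adjusted p = 0.377). All 3 introns of D930048N14Rik had junction reads, 7, 4, 7, 5, 7, 0, 2 and 4 from CT23 to CT65, too few to order the times.

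Atf5 NR_033136 (chr7:52067626-52072028, - strand, 3 exons) is a noncoding variant of the gene for ATF5, a transcription factor of the amino acid and mitochondrial stress responses. It was at 80.9, 58.9, 20.9, 47.4, 64.2, 72.3, 27.7 and 63.3 RPKM from CT23 to CT65, and the CT11 libraries, CT35 and CT59, were the lowest. CT23 exceeded CT11 by 1.56 ± 0.33 (adjusted p = 0.0379), and the 24-h component missed the threshold (adjusted p = 0.0624). Coding exons held 90.4% of its exon bases, 85.8% in Atf5 itself, and coding Atf5 was at 74.1, 51.9, 19.8, 43.6, 63.5, 67.9, 25.5 and 60.4 RPKM. The intron that sets the variant apart had 103, 149, 83, 47, 80, 106, 40 and 70 junction reads from CT23 to CT65, 678 of the 1530 over its introns. Scaled to depth in the same way these were highest at CT29 (12.4) and CT53 (8.52), and at 3.63 and 3.40 in the CT11 libraries.

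B230206H07Rik (chr7:148545077-148551009, - strand, 2 exons) runs against Eps8l2, a gene for an actin-binding protein. It was at 13.6, 10.3, 4.18, 11.2, 15.0, 17.3, 5.21 and 10.9 RPKM, again lowest in the CT11 libraries, and CT23 exceeded CT11 by 1.51 ± 0.33 (adjusted p = 0.0463). Its exon clear of Eps8l2 held 0, 0, 0, 1, 1, 1, 0 and 0 reads from CT23 to CT65, of 520, 365, 281, 384, 567, 630, 180 and 445 in the block, and no junction read crossed its intron. Eps8l2 was at 55.9, 46.2, 13.1, 32.7, 56.4, 57.3, 17.9 and 37.9 RPKM, with CT23 over CT11 by 1.84 (adjusted p = 0.0128).

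Of the 21 tested markers of other liver cell types, 1 was called for CT23 against CT11, higher at CT23 (0.708% of all blocks were). Atf5 NR_033136 and B230206H07Rik were called in that direction too. Sox9, a transcription factor of bile duct cells, read 7.69, 2.02, 1.12, 2.58, 4.13, 1.90, 2.15 and 4.4 RPKM from CT23 to CT65, with CT23 over CT11 by 1.57 (limma, adjusted p = 0.0408). Its highest library was CT23 and its lowest CT35. The bile duct markers Krt19 and Epcam averaged 0.942 and 0.563 RPKM, with CT23 against CT11 differences of 0.38 and -0.48 (adjusted p = 0.705 and 0.314). The part of cell makeup in the 2 calls was not tested.

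Leaving out CT35 kept the 24-h calls of Hectd2os (limma, adjusted p = 0.0142) and D930048N14Rik (0.0353) and ended the CT23 against CT11 calls of Atf5 NR_033136 (difference 1.20, adjusted p = 0.141) and B230206H07Rik (1.19, adjusted p = 0.180). This contrast is partly set by the design. CT35 and CT59 alone make up CT11, so CT23 against CT11 leans on CT35. The CT5 against CT17 difference cannot move without CT35, and for Hectd2os it was 1.48 with and without it. Depth and intron share of CT35 stand beside these results, and their part in them was not tested.

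Other single libraries also decided calls of these 4 members. Hectd2os lost its 24-h call without CT23, CT29, CT41, CT53 or CT65 (adjusted p 0.0503 to 0.153 over the 9 settings that lost it, which include both scalings below, no read filter and its exons outside coding exons). D930048N14Rik lost it without CT23, CT41, CT53, CT59 or CT65 and with no read filter (0.0596 to 0.105). The CT23 against CT11 call of Atf5 NR_033136 was also lost without CT23, CT41 or CT59, and that of B230206H07Rik without CT23, CT29, CT41, CT47 or CT59. Scaling bore on the CT5 against CT17 difference, because the median over all blocks was 0.13 (log2) and scaling by TMM or by equal medians moved the median member by -0.12 and -0.15. Under these scalings the call of Hectd2os was lost (differences of 1.35 and 1.32, adjusted p = 0.057 and 0.0582). The CT23 against CT11 calls were lost under both scalings too, for Atf5 NR_033136 (adjusted p = 0.0629 and 0.0627) and for B230206H07Rik (0.0597 and 0.0586), and that of B230206H07Rik also by edgeR (0.0507). Both were lost with no read filter (0.148 and 0.170).

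**Figure D2:**
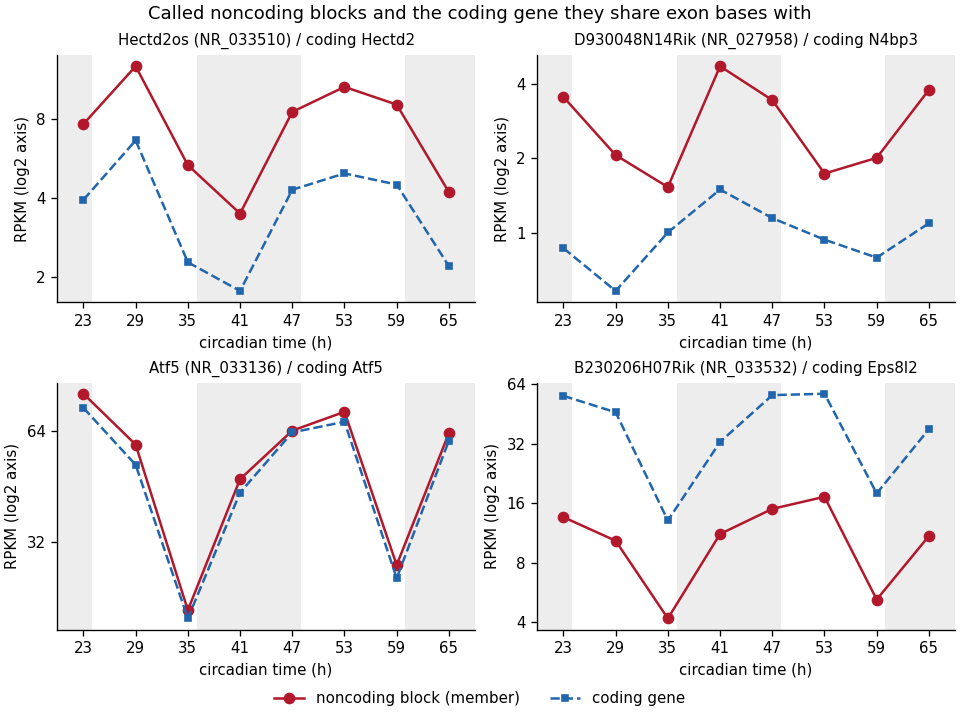
Levels (RPKM, log2 axis) of 4 called members (red circles) and of the coding gene that shares exon bases with each (blue squares) against circadian time (h), 1 library per point, with the subjective night in grey. The noncoding and coding Atf5 lines run together, Hectd2os is above Hectd2 with the same high and low times, and D930048N14Rik is high in the night libraries, 3.44 to 4.71 RPKM against 1.53 to 2.06 in the day.

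**Figure D3:**
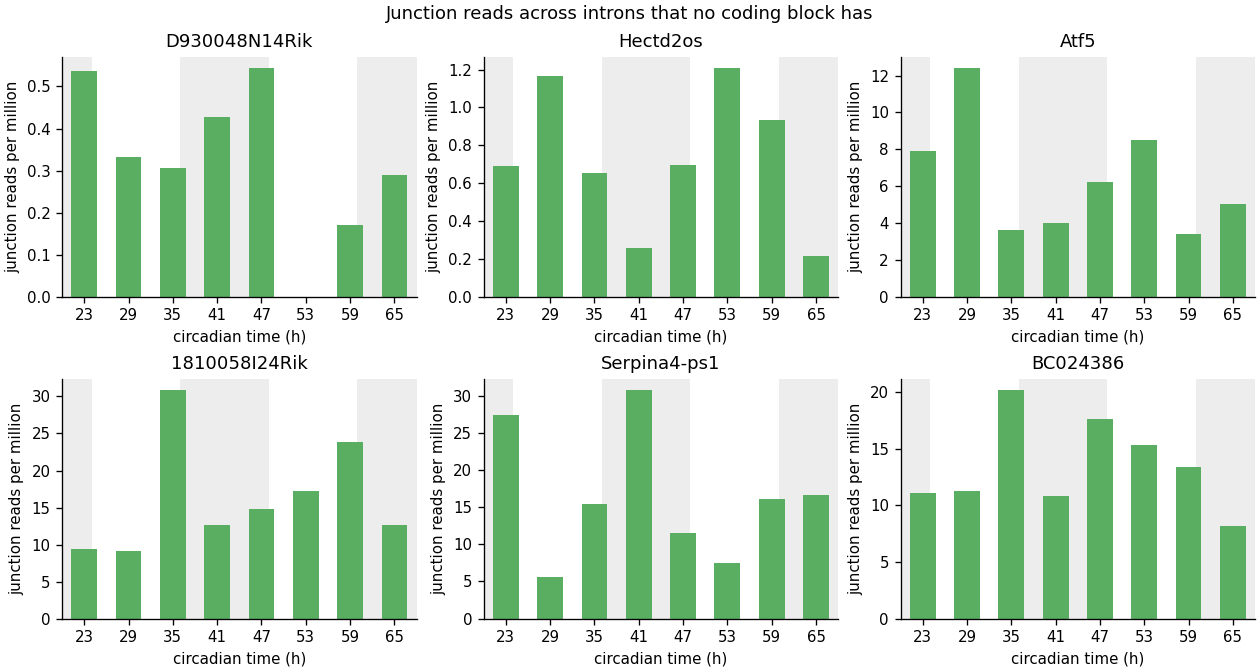
Junction reads scaled to depth (per M library reads), over introns that no coding block has, against circadian time (h), 1 bar per library, with the subjective night in grey, for 6 members. Serpina4-ps1 is lowest at CT29 and CT53 and 1810058I24Rik (NR_015608) highest at CT35 and CT59. Hectd2os is highest in the CT5 libraries (1.16 and 1.21) and lowest in the CT17 libraries (0.257 and 0.216), and D930048N14Rik rests on 0 to 7 reads per library.

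Of the members clear of coding exons, 0 of 130 passed the test for a 24-h component by limma (1.87% of all blocks did). An unadjusted p under 0.05 was found for 23 of them (17.7%), against 16.2% of all blocks. Dancr (chr5:74489108-74490361, + strand), a long noncoding RNA and itself a host of snoRNAs under a symbol the exclusion did not name, had the smallest adjusted p, 0.0749. It was at 3.63, 1.44, 1.05, 3.30, 3.89, 1.71, 2.71 and 3.90 RPKM from CT23 to CT65, with all 4 night libraries above all 4 day libraries and a peak-to-trough of 1.35 ± 0.29 with a peak at 19.9 h. DESeq2 on recovered reads, which called 19 members and 5.31% of all blocks (edgeR called 4 members and 2.81%), gave it an adjusted p of 0.0109, and without CT59 limma called it (0.0277). The order of all night libraries above all day libraries was found in 17 members (4.19%), against 2.66% of all blocks, and the reverse order in 27 (6.65%), against 7.3%.

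Neat1 (chr19:5842302-5845478, - strand) read 46.4, 26.5, 21.0, 63.8, 84.8, 43.6, 42.8 and 54.2 RPKM from CT23 to CT65. The night libraries, at 46.4 to 84.8 RPKM, lay above the day libraries, at 21.0 to 43.6. The peak-to-trough of 1.31 ± 0.37 with a peak at 20.6 ± 1.08 h did not pass the threshold (limma, adjusted p = 0.178), and without CT35 it was 1.0 (adjusted p = 0.258). DESeq2 called it (adjusted p = 0.00872). The block holds 3177 bases, so it covers the 5′ part shared by the Neat1 isoforms.

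The genes of paraspeckle proteins, which assemble on Neat1, gave 0 calls of 16 (background 2.06% of coding blocks), and 4 had an unadjusted p under 0.05. Their median peak-to-trough was 0.46. Nono, which with Sfpq forms the core protein pair, read 25.6 to 30.9 RPKM, with a peak-to-trough of 0.21 ± 0.21. Sfpq read 7.91 to 12.1 RPKM.

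Malat1 (chr19:5795690-5802671, - strand), beside Neat1 on the chromosome, read 95.6, 99.8, 88.3, 81.4, 111, 78.2, 146 and 96.2 RPKM from CT23 to CT65. Its highest library was CT59 and its lowest CT53, and the clock phases overlapped. The peak-to-trough was 0.14 ± 0.30 (adjusted p = 0.956). Malat1 was at 99.7 RPKM on average and Neat1 at 47.9.

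The other long noncoding RNAs listed with Malat1 and Neat1, and the imprinted ones, were weaker. Norad, which binds PUMILIO proteins, averaged 4.81 RPKM (3.44 to 5.90). Tug1 averaged 2.87 and 1.5 RPKM in its 2 blocks. Oip5os1, also called Cyrano, averaged 1.63 and 1.49. Meg3, the maternally expressed RNA of an imprinted cluster, read 1.17, 2.30, 1.92, 1.74, 0.892, 1.68, 2.22 and 2.49 RPKM in its shortest block, with a peak-to-trough of 0.76 ± 0.27 (adjusted p = 0.300) and junction reads over all 9 introns. CT23 and CT47 were its lowest libraries. The longer Meg3 blocks averaged 0.386 and 0.341 RPKM.

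Rian, of the same cluster, averaged 0.312 RPKM and Peg13 2.18. Kcnq1ot1, which silences its neighbours on the paternal chromosome, averaged 0.231 RPKM, and 0.145% of its bases lay in an exon of Kcnq1. None of the 12 blocks listed with Malat1 and Neat1 (both included) or of the 6 imprinted blocks was called by limma, beside 1.87% of all blocks for the 24-h component. The 2 lists share 5 blocks, and 2 and 1 blocks had an unadjusted p under 0.05, beside 16.2% of all blocks.

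Of the X inactivation centre, Jpx, Ftx and 5530601H04Rik were members. Jpx averaged 0.761 RPKM, the Ftx blocks 0.316 and 0.278, and 5530601H04Rik 0.369. An unadjusted p under 0.05 was found for 0 of the 4 blocks, beside 16.2% of all blocks. Firre, a nuclear RNA transcribed from the X chromosome, read 4.73, 5.28, 6.35, 4.15, 3.60, 5.63, 6.28 and 5.19 RPKM from CT23 to CT65. All 4 day libraries lay above all 4 night libraries, with CT29 at 5.28 and CT65 at 5.19 the closest. Its peak-to-trough was 0.60 ± 0.21 (adjusted p = 0.309), and all 19 introns had junction reads, 549 in all.

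Several abundant members clear of coding exons held their level or changed without passing the test. BC024386 read 156, 165, 152, 124, 164, 169.8, 146 and 119 RPKM from CT23 to CT65, with 1556 junction reads, and the CT5 libraries were the highest. Its peak-to-trough was 0.47 ± 0.21 (adjusted p = 0.451). Gm10768 read 130.0, 184, 65.6, 85.3, 89.9, 151, 175 and 201 RPKM, with CT65 the highest and CT35 the lowest. NR_030494, a single exon of 110 bases, read 421, 320.4, 346, 523, 226, 319, 344 and 341 RPKM.

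1810058I24Rik, listed as noncoding here and now known to encode a small mitochondrial peptide, read 21.6, 25.7, 49.5, 27.8, 29, 31.1, 46.9 and 22.1 RPKM in block NR_015608. CT35 and CT59, the CT11 libraries, were at 49.5 and 46.9, and the other 6 were at 21.6 to 31.1. The peak-to-trough was 0.95 ± 0.28 with a peak at 10.2 h (limma, adjusted p = 0.204; DESeq2, 0.0431). Junction reads per M library reads were 9.45, 9.14, 30.8, 12.7, 14.7, 17.3, 23.8 and 12.7, also highest at CT35 and CT59. Both libraries of 1 phase above the other 6 were found in 83 members (20.4%), against 23.1% of all blocks, and CT11 was that phase in 45 of them (11.1% of members), as in 11.6% of all blocks.

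**Figure D4:**
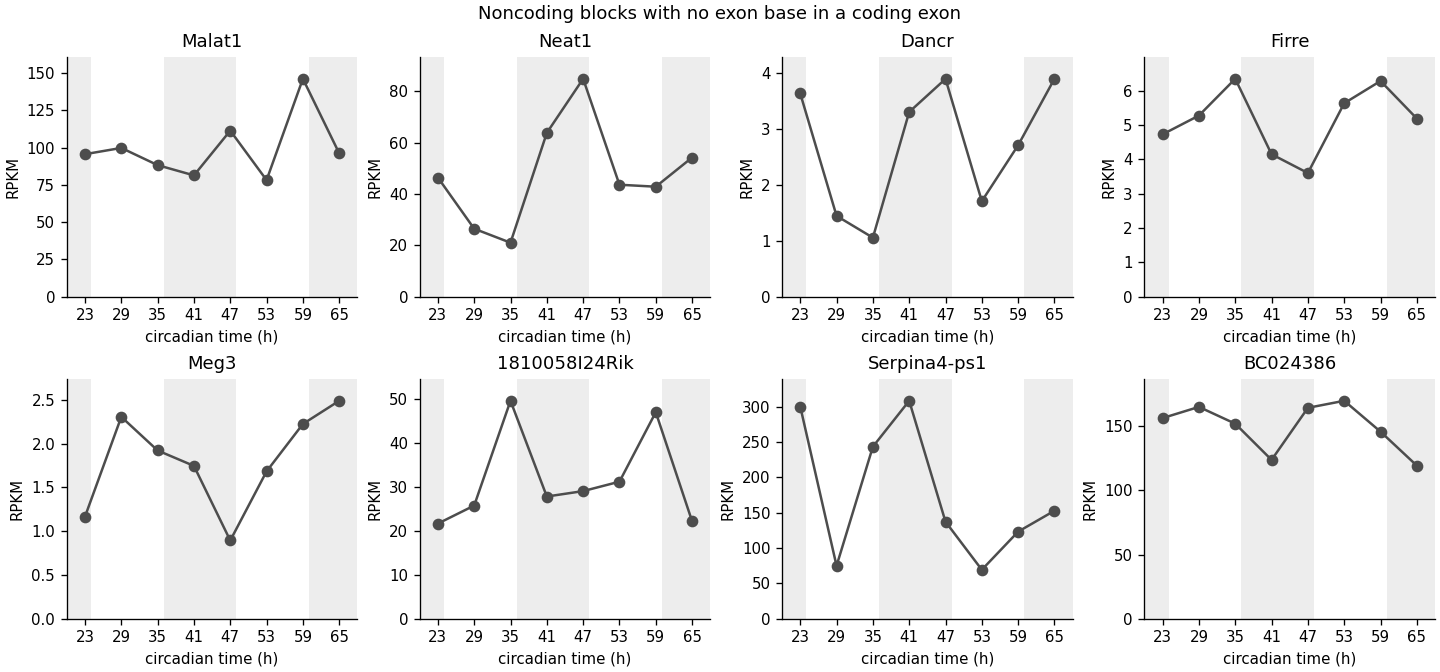
Levels (RPKM, axes from 0) of 8 members with no exon base in a coding exon, against circadian time (h), 1 library per point, with the subjective night in grey. Neat1 and Dancr are higher in all 4 night libraries, 1810058I24Rik is highest at CT35 and CT59, and Malat1 shows no shared order of the 2 days.

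The member of highest mean level was Gm10069 (chr6:128388775-128453298, + strand), at 453, 461, 565, 451, 451, 541, 571 and 441 RPKM. It runs against Pzp, the gene for a plasma protease inhibitor of the alpha-macroglobulin family, whose exons covered 20.4% of its exon bases. Its 3 exons clear of Pzp held 36, 17, 21, 11, 14, 13, 19 and 12 reads from CT23 to CT65, 0.175% of its exon reads, and 3 junction reads crossed its introns. Pzp read 937 to 1479 RPKM.

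The other members among the 10 of highest level were of the same mixed kinds. NR_015570, at 309.6, 189, 712, 599, 370.1, 303, 340.3 and 416 RPKM, had 99.7% of its bases in exons of Hspa8, the gene for the constitutive chaperone HSC70, which was at 203, 109, 305, 373, 173, 163, 191 and 261 RPKM. Its peak-to-trough of 1.19 ± 0.37 had an adjusted p of 0.218, and that of Hspa8 was 1.28 ± 0.30 (adjusted p = 0.0964). The noncoding variant of Hgd, for an enzyme of tyrosine breakdown, averaged 205 RPKM, but 53 of its 53244 junction reads crossed an intron of its own. For the variant of Gnas, for a G protein subunit, it was 0 of 22889, and for that of Cyp3a25, a cytochrome P450, 354 of 16874. The 3 averaged 205, 146 and 117 RPKM, with adjusted p-values of 0.987, 0.933 and 0.299.

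The lower and the upper deposited value of a block differed most often among pseudogenes. Per the file headers these are named min and max only. The summed upper value was over 2 times the summed lower one in 31 of the 58 members that RefSeq types as transcribed pseudogenes, in 1 of 128 long noncoding RNAs, in 1 of 128 noncoding transcripts of coding genes and in 2 of 14 miRNA entries. That ratio was looked at after the values were seen, and no source used here says how the lower and upper values were made.

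Gm5424, an intronless copy of Ass1, the urea cycle gene for argininosuccinate synthase, read 445, 404, 187, 578, 465, 475, 374 and 439 RPKM by the lower value, with an upper value 3.23 times as high. Ass1 read 911, 810.1, 400.3, 1171, 881, 855, 871 and 1111 RPKM. CT35 was the lowest library and CT41 the highest in both. Their peak-to-trough values were 0.81 ± 0.35 and 0.75 ± 0.36 (adjusted p = 0.433 and 0.477). Reads of a near-identical copy cannot be assigned with certainty.

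Serpina4-ps1, a pseudogene of the serine protease inhibitor cluster, had a ratio of 1.0 and 1797 junction reads of its own. It read 300.1, 74.8, 243, 308, 137, 69.2, 123 and 153 RPKM from CT23 to CT65. The CT5 libraries, CT29 and CT53, were the lowest, at 74.8 and 69.2, and the other 6 were at 123 to 308. The peak-to-trough of 1.60 ± 0.48 with a peak at 17.5 h did not pass the threshold (limma, adjusted p = 0.209; DESeq2, 0.0177). Its junction reads per M library reads were 27.4, 5.57, 15.4, 30.7, 11.5, 7.48, 16.2 and 16.6, again lowest at CT29 and CT53. On the first day CT23, CT35 and CT41 were at 243 to 308, and on the second CT47, CT59 and CT65 were at 123 to 153.

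Mug-ps1, a copy of the murinoglobulin genes, averaged 30.8 RPKM with a ratio of 4.51 and 12097 junction reads over 35 introns. Mug1 averaged 626 RPKM. Cyp2d13, at 88.2, 102, 93.8, 123, 113, 117, 117 and 108 RPKM, had 8010 junction reads over 8 introns, a ratio of 1.1 and a peak-to-trough of 0.11 ± 0.24. Cyp2d37-ps averaged 45.2 RPKM, highest at CT35 (79.4) and CT59 (52.6). Adh6-ps1 averaged 9.25 RPKM and was highest at CT23 and CT47, at 15.5 and 11.5, with a peak-to-trough of 0.96 ± 0.24 (adjusted p = 0.120).

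The largest ratios were those of Gm12070 (112), Ces2d-ps (80.2) and Ubb-ps (27.2), with lower values averaging 5.63, 0.649 and 8.97 RPKM. Gm12070 had the largest peak-to-trough of the pseudogenes, 1.68 ± 0.58 (adjusted p = 0.282), and read 0.611 RPKM at CT35 and 4.54 to 7.28 elsewhere. A group of pseudogene names lay wholly in exons of their coding relative in mm9. Gm15772 lay in Rpl26 and averaged 71.5 RPKM, Gm12669 lay in Glrx3 and averaged 12.7, and Oaz1-ps lay in Oaz1 and averaged 8.09. Gm6793 lay in Hnrnpa3 (2.65 RPKM), Gm10052 in Hnrnpa1 (2.54), Nutf2-ps1 in Nutf2 (2.36), Gm13363 in Ptp4a1 (1.5), Gm7367 in Ubald2 (5.78) and Gm12191, for 99.6% of its bases, in Rpl30 (9.05).

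Of the 36 pseudogenes by name, 0 were called by limma and 6 had an unadjusted p under 0.05, beside 1.87% and 16.2% of all blocks. Their median peak-to-trough was 0.39, and their means ran from 0.344 RPKM (Gm15760) to 421 (Gm5424). Further spliced ones were Gm10319 at 20.1 RPKM, Pisd-ps1 and Pisd-ps3, which share their position and their 979 junction reads, at 20.1 and 20.1, Pisd-ps2 at 5.57, Gm4956 at 9.40, Ube2d-ps at 2.33, Cyp2c53-ps at 0.964, Ppp4r1l-ps at 0.799, Gpr137b-ps at 0.652 and Zfp862-ps at 0.509. Those with at most 2 junction reads of their own were Gm3219 at 24.9 RPKM, Marcksl1-ps4 at 10.1, Gm6548 at 4.26, Gm6981 at 1.04, Gm10653 at 0.976, Gm5088 at 0.919, Gm14057 at 0.609 and Gm4759 at 0.426.

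**Figure D5:**
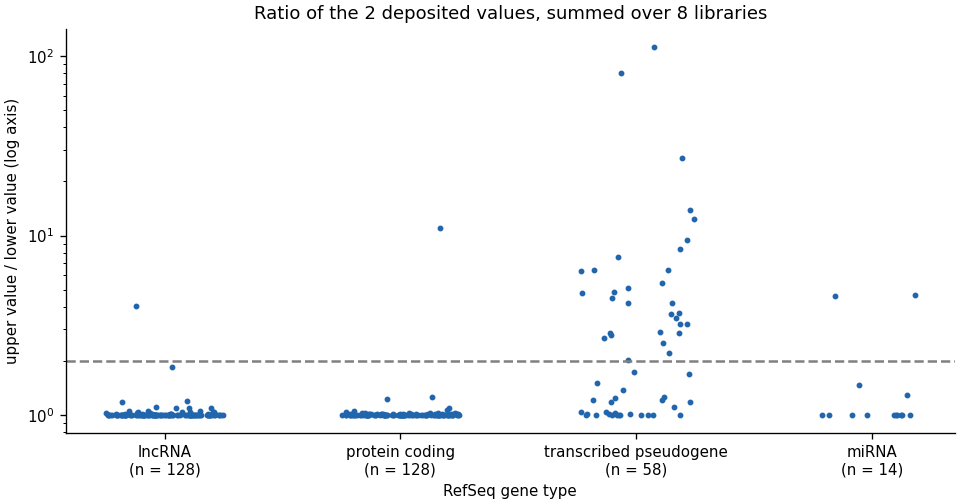
Ratio of the summed upper to the summed lower deposited value over the 8 libraries (log axis), 1 point per member, by RefSeq gene type, with a dashed line at 2. Above the line lie 31 of 58 transcribed pseudogenes and 1 of 128 long noncoding RNAs.

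Members named as antisense or opposite-strand transcripts numbered 16 blocks, of which 1, Hectd2os, was called (1.87% of all blocks were) and 3 had an unadjusted p under 0.05, beside 16.2% of all blocks. Zbtb11os1, a single exon with 42.1% of its bases in Zbtb11, read 0.798, 1.91, 1.46, 0.761, 0.921, 1.43, 1.58 and 0.802 RPKM from CT23 to CT65. It just missed the threshold, with a peak-to-trough of 0.94 ± 0.19 and a peak at 7.48 h (adjusted p = 0.0530). Zbtb11 had 0.83 ± 0.22 with a peak at 5.04 h (adjusted p = 0.144).

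Hnf4aos runs against the gene of HNF4A, a transcription factor that defines hepatocytes, with no exon base in a coding exon and 113 junction reads. It read 2.83, 3.16, 4.99, 5.08, 4.24, 2.96, 5.26 and 4.37 RPKM, with a peak-to-trough of 0.74 ± 0.23 (adjusted p = 0.222). Hnf4a read 135, 140.1, 132, 156, 145, 171, 162 and 121 RPKM, with 0.19 ± 0.24. CT23, CT29 and CT53 were the lowest for the antisense RNA, at 2.83 to 3.16, whereas CT53 was the highest for Hnf4a.

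Of the other opposite-strand names, Rab10os averaged 11.6 RPKM with 221 junction reads of its own, Fam120aos 7.39 with 65, and Abhd11os 5.73 with 14. No junction read of their own was found for Uckl1os (7.60 and 0.650 RPKM in 2 blocks), Ppifos (4.75), Zfhx2os (3.12), Peg3os (1.74), Phtf1os (0.471) and Slc13a2os (0.331). All of Peg3os lay in exons of Peg3.

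Small RNA entries were read through polyadenylated fragments, since the libraries were made from polyA RNA cut to 350 to 500 bp, so they hold no measure of mature miRNAs or snoRNAs. Mir22 read 34.0, 25.4, 43.3, 49.5, 35.1, 50.8, 68.9 and 44.0 RPKM over its 95 bases, and its host Mir22hg read 9.09, 6.68, 11.6, 10.9, 7.95, 12.7, 14.8 and 9.55 RPKM over 1766. Both were highest at CT59 and lowest at CT29, with peak-to-trough values of 0.75 ± 0.32 and 0.61 ± 0.28 (adjusted p = 0.415 and 0.460). The hairpin lies within its host gene, so reads of the host RNA over it count toward Mir22, and the shared order is no separate evidence. Of the 16 miRNA hairpins and hosts, 8 shared bases with coding exons. None was called and 4 had an unadjusted p under 0.05, beside 1.87% and 16.2% of all blocks.

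Several hairpins lay inside coding exons, where reads of the message count toward them. Mir704 had 18.2% of its bases in an exon of Pdia4 and averaged 104 RPKM, where Pdia4 averaged 54.0. Mir135a-1 lay wholly in an exon of Glyctk on the opposite strand and averaged 83.6 RPKM, where Glyctk averaged 33.4. Mir686 lay in Psmb5 (46.0 RPKM), Mir1892 in Sptssa (34.5), Mir1896 in Zscan26 (28) and Mir546 in Ctdsp2 (20.5). Mir702 touched Plod3 (27.3 RPKM) and Mir328 touched Elmo3 (26.1).

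Clear of coding exons were Mir682 at 54.0 RPKM and Mir692-1 at 22.1, with upper to lower ratios of 4.64 and 4.61, Mir568 at 34.3, Mir1982 at 17.8 and Mir291b at 13.7. Mir291b was highest in the CT5 libraries, at 27.4 and 22.4 RPKM, and at 6.09 to 11.8 in the other 6 (adjusted p = 0.237). Dleu2, the host of the Mir15a and Mir16-1 hairpins, averaged 2.77 RPKM with 230 junction reads.

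Among structural small RNAs, Snora20 averaged 45.8 RPKM, Snord4a 24.8, Snord104 16.0, the Rnu7 block 11.5, Snora64 10.6 and Snord123 0.213. Of these 6, 0 were called and 1, Snord4a, had an unadjusted p under 0.05, beside 1.87% and 16.2% of all blocks. Snord4a ranged from 8.31 to 44.0 RPKM (adjusted p = 0.106). The blocks of Rnu7 (3034 bases, 32.6% in coding exons) and Snord123 (6160 bases) were far longer than the small RNAs they are named for. No ribosomal RNA entry was a member.

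The remaining known names were Sra1, whose gene makes coding and noncoding RNAs, at 16.5 RPKM with 89.1% of its bases in coding Sra1, Gt(ROSA)26Sor, the locus used for transgenes, at 2.47, and Pvt1, a neighbour of Myc, at 0.362. With Dancr and Firre these 5 had 0 calls and 1 unadjusted p under 0.05, beside 1.87% and 16.2% of all blocks. Some known noncoding RNAs stayed under the read minimum. The libraries were made from polyA RNA, so a low count gives no level for an RNA without a polyA tail. Xist had at most 6 reads in a library in either block, Tsix at most 5, Airn at most 11, Mirg at most 7, Mir17hg at most 9, Rpph1 at most 16, Terc at most 2, and Rmrp and Miat at most 1.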

How the data were processed

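Polyadenylated liver RNA was sequenced from 8 libraries, 1 per circadian time, each a pool of 3 animals. Per the labels' protocols, fragments of 350 to 500 bp were cut from a gel. The genome build was mm9 (submitters' processing notes), and RUM made the junction files, per the file headers. The deposited junction files hold counts of reads across each splice junction. The deposited transcript tables hold a lower and an upper value (min and max) per block, which behave as RPKM: times length, values up to 1000 reads were whole multiples of 1 step per library for 99.9976 to 100% (tolerance 0.1 read), and reads were recovered from that step. No source used here gives the quantifying program, the strand setting or how min and max differ.

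Members and lists were chosen with earlier results of these data known. The lower value was used, as log2(RPKM + 0.5), which understates changes of low transcripts. limma 3.58.1 (R 4.3.3, trend and robust) fitted a 24-h cosine and sine to the 8 libraries, and for the day difference a clock phase term and a day term. Benjamini-Hochberg adjustment ran over all 63103 blocks with 20 or more reads in 2 or more libraries. Peak-to-trough is the full height of the fitted curve. The cosine gives CT23 against CT11 and the sine CT5 against CT17. edgeR 4.0.16 and DESeq2 1.42.0 on recovered reads, TMM and equal-median scaling, other pseudocounts and read minimums, the upper value, 1 block per gene, exons outside coding exons and leaving out each library were alternatives. Named were called members (1 is not reported here), the 10 of highest mean, list members and up to 3 highest per class. The orders of night and day libraries, the phase pairs and the upper to lower ratio were looked at after values were seen. The fit was tested on simulated data. Since each time is 1 pool, p-values measure the spread of pools around the curve, not of animals.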

Additional observations from a re-analysis of the deposited data

How the results depend on the processing

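The count of 3 members called for a 24-h component was 1 with no read filter, 6 of 278 at a minimum of 50 reads, 7 with 1 block per gene (3.01% of the 11708 tested were called), 1 of 161 outside coding exons and 19 by DESeq2, and 1 to 3 when single libraries were left out. For CT23 against CT11 the count of 3 was 1 with no read filter, 1 under TMM, 1 under equal medians, 0 outside coding exons and 13 by DESeq2, and 1 to 3 without single libraries. Without CT23, 2 of the 3 were lower at CT23, 1700001L05Rik and 4930539J05Rik. For CT5 against CT17 the count of 1 was 0 with no read filter, 3 at 50 reads, 3 by edgeR, 3 with 1 block per gene and 8 by DESeq2, and 0 to 4 without single libraries. The number of all blocks called moved with these settings too. The 24-h component gave 272 of 98240 with no read filter, 1589 of 49339 at 50 reads and 1179 of 62858 outside coding exons. For CT23 against CT11 it was 207 with no read filter, 843 under TMM, 846 under equal medians and 888 outside coding exons. The main fit called 892 there and DESeq2 2134, of 63103. For CT5 against CT17 it was 0 with no read filter, 469 at 50 reads and 139 with 1 block per gene. There limma called 375, edgeR 517 and DESeq2 1285. The CT23 against CT11 count of 0 outside coding exons rests on 161 members. Atf5 NR_033136 and B230206H07Rik were not among these, so that setting could not retest their calls. The day difference gave 0 members under each setting. edgeR called 4 members for the 24-h component, where all blocks gave 1774 calls and DESeq2 3349, against 1180 by limma. Hectd2os for CT5 against CT17, and Atf5 NR_033136 and B230206H07Rik for CT23 against CT11, kept their direction in each alternative that measured them. Not every alternative could move these differences. Leaving out CT23, CT35, CT47 or CT59 cannot change that of Hectd2os (1.48). Leaving out CT29, CT41, CT53 or CT65 did not change those of Atf5 NR_033136 (1.56) and B230206H07Rik (1.51). Gm10069, which was not called, had its 24-h peak at 1.43 h in its exons outside coding exons and at 10.9 h by DESeq2 on the whole block. Those exons held few of its reads, so these settings read different bases. The cause of these differences was not tested. No paired analysis was possible because each time has 1 library, so that the only replicate number, 1, pairs no samples. Changes of the size 1 (log2 peak-to-trough) were mostly below what 8 libraries showed, with 2 of 100 such simulated blocks recovered.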
